A study of Zea mays with 10 samples.

Results

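Only 3 of 22377 maize gene models measured in both prophase I tables met the rule for genes higher in ms28 anthers and level in ms28 male germ cells. They are Zm00001d042639, Zm00001d039566 and Zm00001d008841. Members were chosen by measured values: both ms28 anther libraries at 5 TPM (the share of a library's transcripts, scaled by length) or more, and the lower of them at least 2 times the higher B73 anther library. In germ cells both genotype means had to be at 1 TPM or more and the ms28 over B73 ratio of means between 0.5 and 2. Gene models numbered Zm00001d012786 to Zm00001d013188 were left out (252 in both tables). The anther and germ cell differences between ms28 and B73 are therefore descriptions below, and the calls, errors and intervals given with them support nothing about these gene models. In germ cells Zm00001d042639 lay between 30.7 and 46.0 TPM in all 4 libraries. For Zm00001d039566 and Zm00001d008841 the 2 B73 germ cell libraries lay far apart, so the phrase "raised only in ms28 anthers" did not hold for them library by library.

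The series follows phased small interfering RNAs (phasiRNAs) and their target transcripts in maize anthers. RNA was measured in 2 libraries of each group: ms28 anthers at prophase I, B73 anthers at prophase I, ms28 male germ cells at prophase I, B73 male germ cells at prophase I, and B73 anthers before meiosis. B73 is an inbred line and ms28 a male-sterile mutant, and the labels do not say whether ms28 was bred into B73, so line and mutation cannot be told apart. Plants grew in a field or a greenhouse, which the labels do not assign to libraries. Whether replicate libraries are from different plants is not stated either, so spreads may be technical.

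An anther is made of somatic wall layers, the innermost being the tapetum that feeds the meiocytes, around a core of male germ cells that enter meiosis. Whole-anther RNA thus mixes both, and isolated germ cells leave the wall out. In grasses, reproductive phasiRNAs are cut from long precursor transcripts after a miRNA of the MIR2118 or MIR2275 family triggers the process, and Argonaute proteins carry them. The maize Ms28 gene is known to encode an Argonaute of the AGO5 group. Whether the plants used here carry that lesion was not checked, since no gene model could be paired with a gene name: the reference gene table, of another assembly, matched 0 of the 22377 IDs. The same holds for markers of tapetum and germ cells, so the tissue labels were not checked by markers, and the 3 gene models are given by ID with no function. In these bulk samples fewer cells of a type and less RNA per cell cannot be told apart.

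Most gene models read lower in ms28 anthers on this scale of shares. Medians over the anther table were 4.45 and 4.66 TPM in ms28, against 8.27 and 6.65 TPM in B73, and in 67.5% of gene models the ms28 libraries both lay below the B73 ones. The ms28 libraries both lay above the B73 ones in 3.56%. Depth per library is unknown, because the values are not counts, and no counting interval can be given.

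Zm00001d042639 had the widest separation by ratio of anther means, 6.22-fold. It stood at 235.8 and 121.1 TPM in ms28 anthers, against 21.9 and 35.5 TPM in B73 anthers. The groups did not overlap, and the ms28 libraries differed from each other by 1.95-fold. In germ cells it read 32.8 and 32.6 TPM in ms28, against 46.0 and 30.7 TPM in B73. The ms28 germ cell libraries thus lay inside the range of the B73 ones, and the ratio of means was 0.852. By group mean the order was ms28 anthers at 178 ± 81.1 TPM, B73 germ cells at 38.4 ± 10.8 TPM, ms28 germ cells at 32.7 ± 0.192 TPM and B73 anthers at 28.7 ± 9.64 TPM (SD, n = 2 each). The last 3 groups overlapped, and both ms28 anther libraries lay above them. Against B73 anthers the rule required this, so nothing is read from it. The rule set no limit between anthers and germ cells, but their tables were filtered separately. Tissue and table therefore cannot be told apart in this order, or in those of the other gene models below.

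Zm00001d039566 stood at 124.4 and 245.1 TPM in ms28 anthers, against 37.9 and 43.3 TPM in B73 anthers. The lower ms28 value was 2.87 times the higher B73 value, and the ratio of means was 4.55. In germ cells it read 104.4 and 154.7 TPM in ms28, against 35.0 and 148.2 TPM in B73. B73 germ cell replicate 1 lay at the level of B73 anthers, and replicate 2 at the level of the ms28 libraries. The ratio of germ cell means was 1.41, but the ms28 mean was 3.70 times B73 replicate 1 and 0.874 times B73 replicate 2. By group mean, ms28 anthers (185 ± 85.4 TPM), ms28 germ cells (130 ± 35.6 TPM) and B73 germ cells (91.6 ± 80.0 TPM) overlapped as neighbours (SD, n = 2 each). B73 anthers were lowest (40.6 ± 3.80 TPM), and B73 germ cell replicate 1 lay just under them.

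Zm00001d008841 was the least abundant of the 3 in B73 anthers. It stood at 44.7 and 66.1 TPM in ms28 anthers, against 8.36 and 11.4 TPM in B73 anthers. The lower ms28 value was 3.93 times the higher B73 value, the largest such ratio of the 3, and the ratio of means was 5.62. In germ cells it read 43.8 and 55.6 TPM in ms28, against 10.3 and 132.6 TPM in B73. Both ms28 libraries lay between the B73 ones, which differed from each other by 12.8-fold. The ratio of germ cell means was 0.695, made of 4.81 against B73 replicate 1 and 0.375 against B73 replicate 2. By group mean the order was B73 germ cells (71.5 ± 86.5 TPM), ms28 anthers (55.4 ± 15.2 TPM), ms28 germ cells (49.7 ± 8.35 TPM) and B73 anthers (9.86 ± 2.12 TPM), with n = 2 each and SD as error. The first 3 of these overlapped, and B73 germ cell replicate 1 lay among the B73 anther values.

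**Figure D1:**
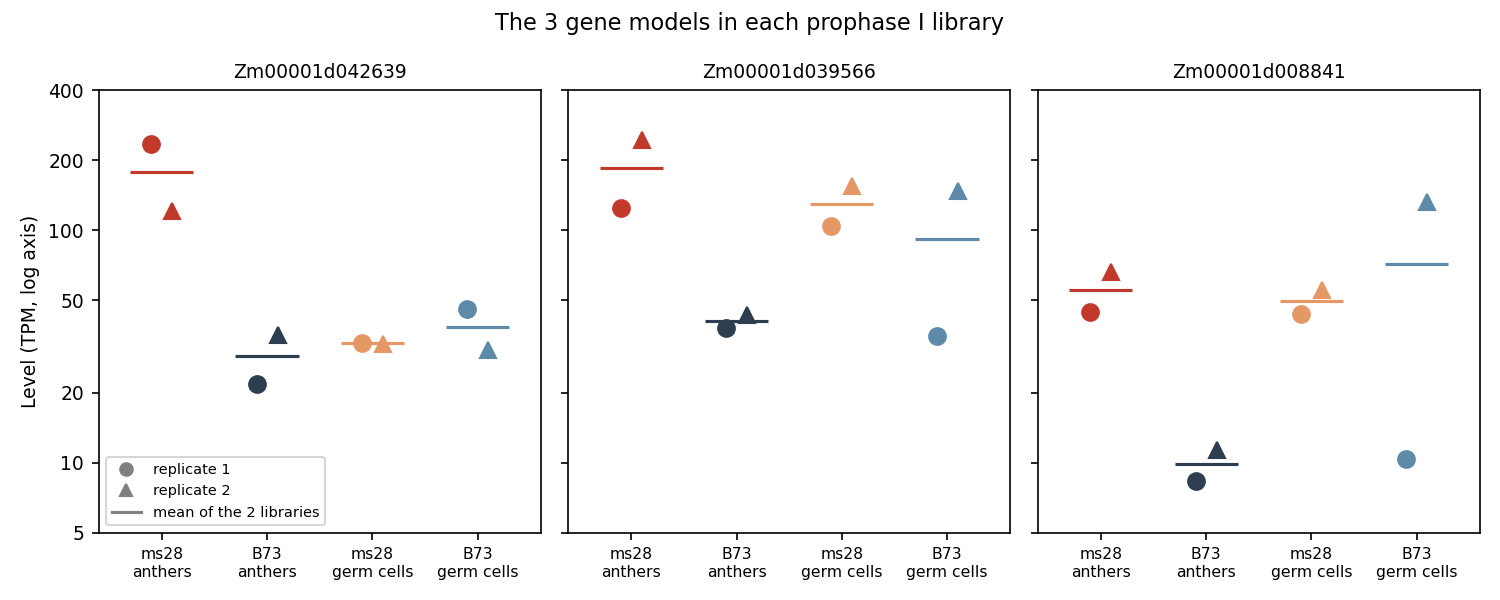
Level in TPM (log axis) of the 3 gene models in each prophase I library, by group; circles are replicate 1, triangles replicate 2 and lines the mean of the 2 libraries. ms28 anthers lie above B73 anthers in each panel, as the rule requires, while the B73 germ cell libraries of Zm00001d008841 stand at 10.3 and 132.6 TPM.

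The spread between the B73 germ cell libraries was wide for 2 of the 3 gene models when set beside other genes. Among 17029 gene models at 1 TPM or more in both B73 germ cell libraries, 7 (0.0411%) had a ratio of the higher to the lower B73 library as large as that of Zm00001d008841, itself included. For Zm00001d039566, with a ratio of 4.23, the count was 89 (0.523%). For Zm00001d042639, with a ratio of 1.5, it was 4327 (25.4%). Replicate 2 was at least 2 times replicate 1 in 5.82% of the 17029 gene models. Among the 13 of them that met the anther part of the rule the count was 4 (30.8%). These were Zm00001d039566, Zm00001d008841 and, outside the members, Zm00001d047548 and Zm00001d047553. Without B73 germ cell replicate 2 only Zm00001d042639 met the rule. Without B73 germ cell replicate 1, Zm00001d042639 and Zm00001d039566 still met it, and Zm00001d008841 did not. The rule used the means of these B73 germ cell libraries, and a mean can be level while its 2 libraries lie apart. The shares above are therefore not independent of the rule, and nothing is read from them. What set those libraries apart at these genes was not tested.

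The germ cell condition removed most gene models that met the anther condition. In both tables and outside the left-out numbers, 31 gene models met the anther condition, of which 3 met the whole rule. Of the other 28, 7 had both germ cell means at 1 TPM or more and a ratio above 2 (2.14 to 59.7), and 3 had a ratio under 0.5 (0.196 to 0.287). A further 18 had a germ cell mean under 1 TPM, 13 of them in B73 alone and 5 in both genotypes. The opposite anther pattern, with the lower B73 value at 5 TPM or more and at least 2 times the higher ms28 value, was met by 631 gene models. The 31 depended on scaling: it was 184 with libraries scaled to a common median and 107 with quantile normalization. The opposite pattern was not recounted on those scales, so 31 and 631 hold for TPM as deposited only.

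**Figure D2:**
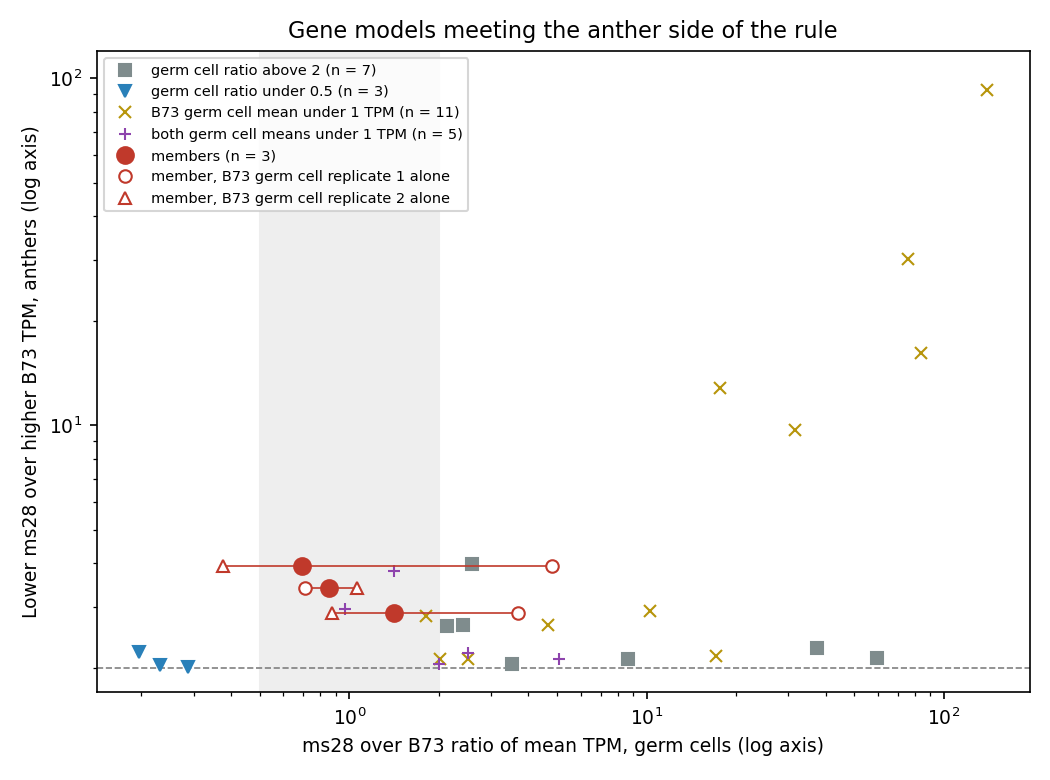
Lower ms28 over higher B73 anther TPM (vertical, log axis) against the ms28 over B73 ratio of mean germ cell TPM (horizontal, log axis) for gene models meeting the anther condition; 2 gene models listed at 0 in the 4 B73 prophase I libraries are not drawn. The grey band is the germ cell range of the rule (0.5 to 2), the dashed line an anther ratio of 2, filled red circles the 3 members, and open circles and triangles their germ cell ratio with B73 germ cell replicate 1 or 2 alone, which leaves the band with replicate 1 alone for Zm00001d039566 (3.70) and with either replicate alone for Zm00001d008841 (4.81 and 0.375).

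At the edge of the rule, the nearest gene model under the anther ratio of 2 was Zm00001d051001, with a ratio of 1.96. It read 4738 and 4520 TPM in ms28 anthers, against 2309 and 1953 TPM in B73 anthers. The next was Zm00001d038824, also at 1.96, with 15.1 and 12.1 TPM in ms28 anthers, against 6.19 and 6.09 TPM in B73 anthers. Just inside stood Zm00001d039566 at 2.87 and Zm00001d042639 at 3.41, so no gene model meeting the other conditions lay between 1.96 and 2.87. Under the minimum of 5 TPM the nearest were Zm00001d023252 (3.90 and 4.30 TPM in ms28 anthers, against 1.46 and 0.920 TPM in B73 anthers) and Zm00001d024803 (2.38 and 3.00 TPM, against 0.160 and 0.310 TPM). In B73 germ cells Zm00001d024803 read 5.26 and 0 TPM, so its germ cell ratio of means, 1.07, rests on libraries far apart. The lowest ms28 anther values inside were 44.7 TPM for Zm00001d008841 and 121.1 TPM for Zm00001d042639, far above the minimum of 5 TPM. On the germ cell side, among gene models with both germ cell means at 1 TPM or more, the nearest outside was Zm00001d026152. Its ratio was 2.14, from 70.7 and 56.5 TPM in ms28 germ cells, against 30.4 and 29.1 TPM in B73 germ cells.

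The premeiotic libraries were not used to choose the gene models. Their table was made separately and its header names no unit. Levels were therefore compared by percentile rank within each library, over the 25412 features of both anther tables, where 100 is the most abundant. Ranks do not remove a difference in unit, so stage and table cannot be told apart in these comparisons. Zm00001d039566 stood at percentiles 95.6 and 97.6 in ms28 prophase I anthers and at 82.2 and 86.6 in B73 prophase I anthers, against 99.1 and 99.3 in B73 premeiotic anthers. Zm00001d008841 stood at 89.4 and 92.1 in ms28 prophase I anthers and at 50.2 and 62.3 in B73 prophase I anthers, against 87.1 and 89.8 in B73 premeiotic anthers. For both, the ms28 prophase I ranks were nearer to the premeiotic ranks than the B73 prophase I ranks were. Zm00001d042639 differed from this: it stood at 97.6 and 95.4 in ms28 prophase I anthers and at 72.4 and 84.2 in B73 prophase I anthers, against 72.7 and 72.9 in B73 premeiotic anthers. Its premeiotic ranks lay inside the range of the B73 prophase I ranks, and both ms28 libraries lay above them. The rule placed ms28 above B73 in prophase I anthers, so where the ms28 ranks lay beside the premeiotic ones is not independent of it. Nothing is read from which genotype lay nearer to the premeiotic ranks.

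As mean ranks, B73 prophase I minus B73 premeiotic anthers, the differences were -32.2 points for Zm00001d008841, -14.8 for Zm00001d039566 and 5.45 for Zm00001d042639. Over all 25412 gene models of both anther tables the median was -1.44. A difference of -32.2 or lower was found in 0.913% of them and one of -14.8 or lower in 8.70%. Among the other 28 gene models that met the anther condition, 6 lay at -32.2 or lower and 9 at -14.8 or lower, within a range of -68.5 to 43.1. The rule favours gene models that read low in the B73 prophase I libraries, so these differences are not independent of it. They also set stages from separate tables side by side, so stage and table cannot be told apart. With 2 libraries against 2, an exact two-sided permutation test cannot give a p under 0.333, and none is given.

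**Figure D3:**
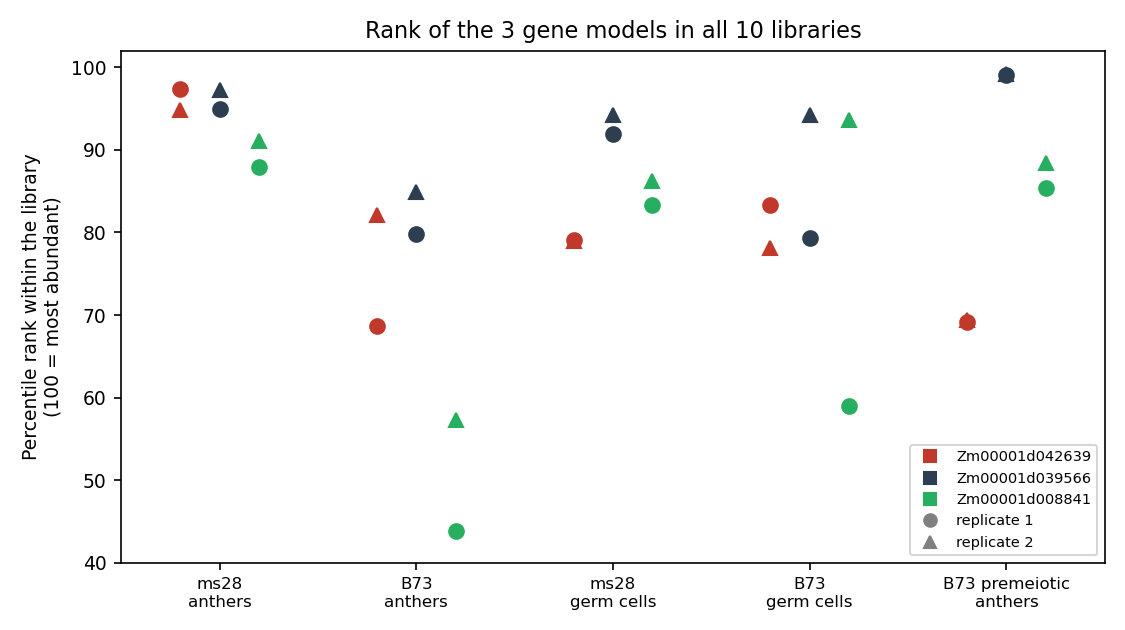
Percentile rank (100 is the most abundant) of the 3 gene models within each of the 10 libraries, over the 22377 features in all 3 tables; circles are replicate 1 and triangles replicate 2. Zm00001d008841 stands at 43.8 and 57.3 in B73 prophase I anthers and at 85.4 and 88.4 in B73 premeiotic anthers, while Zm00001d042639 stands highest in ms28 anthers, at 97.3 and 94.8.

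The relation between germ cells and whole anthers was next described within each genotype. In ms28 the germ cell over anther ratio of means was 0.183 for Zm00001d042639, 0.701 for Zm00001d039566 and 0.897 for Zm00001d008841. In B73 it was 1.34, 2.26 and 7.25 in the same order of gene models. The last 2 of these rest on B73 germ cell libraries far apart, at 35.0 and 148.2 TPM and at 10.3 and 132.6 TPM. For Zm00001d039566, B73 germ cell replicate 1 lay under the B73 anther mean of 40.6 TPM. A limma fit took in all 8 prophase I libraries, on log2(TPM + 1), over 20892 features. Of the 3 gene models, 1 was called between ms28 germ cells and ms28 anthers (Zm00001d042639, lower in germ cells) at a Benjamini-Hochberg adjusted p under 0.05, where 56.6% of all features were called and 21.5% were lower in germ cells. Between B73 germ cells and B73 anthers limma called 0 of the 3, with 0 at an unadjusted p under 0.05, where 68.2% of all features were called, and it called 2 without B73 germ cell replicate 1. Nothing is read from these counts, since the rule chose the gene models by values of the same anther and germ cell libraries. They also set separately filtered tables side by side, so tissue and table cannot be told apart.

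In the same limma fit, 1 of the 3 gene models (Zm00001d042639) was called higher in ms28 anthers, where 0.507% of all features were called higher, and nothing is read from this since the rule used that contrast. The log2 differences, ms28 minus B73 anthers on the log2(TPM + 1) scale, were 2.56 (SE 0.36) for Zm00001d042639, 2.08 (SE 0.60) for Zm00001d039566 and 2.36 (SE 0.91) for Zm00001d008841, beside a median of -0.48 over all features. The SEs pool the spread of all 4 prophase I groups and so take in the B73 germ cell libraries that lay apart. In germ cells the differences were -0.20, 0.81 and 0.37 in the same order, with 95% intervals of -1.03 to 0.63, -0.57 to 2.18 and -1.72 to 2.46. Those intervals do not show that the genotypes were alike, and for Zm00001d039566 and Zm00001d008841 they include the size seen in anthers.

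The 3 gene models did not lie near each other by number, the closest pair being 3073 gene numbers apart. Among gene models of both tables within 10 numbers of each, 8 for Zm00001d042639, 9 for Zm00001d039566 and 10 for Zm00001d008841, 0 met the anther condition. Only 31 of the 22125 gene models outside the left-out numbers met it, so nothing is read from that 0. For the neighbours within 10 numbers, the median log2 ratio of mean TPM + 1, ms28 over B73 anthers, was -0.60, -0.41 and -0.48 in the same order. The median over all fitted features was -0.48, but as a limma difference of mean log2 values, so the 2 measures are not quite alike. As pathway genes, the precursors of the MIR2118 and MIR2275 miRNAs in the fit gave 1 call among 5 loci in anthers, where 7.82% of all features were called in either direction. The locus called was MIR2275b, with a log2 difference of 2.02 (SE 0.38, adjusted p = 0.0287 by limma), and the call ended (adjusted p from 0.0656 to 0.149) without any one of the 4 ms28 libraries or B73 anther replicate 1. The other 4 loci had log2 differences below 0 and were not called: MIR2275c at -1.17, and the 3 MIR2118 loci between -0.50 and -0.23. The sign of the MIR2118 loci depended on scaling. With libraries centred on the median feature they lay between 0.10 and 0.38, and MIR2275c at -0.57. With quantile normalization the MIR2118 loci lay between -0.003 and 0.42, and MIR2275c at -1.42. Without B73 anther replicate 2, MIR2275c was called lower (log2 -1.92, adjusted p = 0.0286 by limma).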

How the data were processed

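RNA-seq values came from 3 deposited tables. Tools named in the submitters' processing notes, with no role for each, are HISAT2 2.2.1, Trimmomatic 0.33, featureCounts 2.0.1, Cufflinks and DESeq2, and the build is B73 RefGen_v4. Per the file headers, the prophase I columns are WT (read as B73) and ms28 replicates, and no unit is named. The deposited values were read as TPM because each column sums to 99.1 to 99.4% of 1000000 and low values share no step of 1 read. The deposited premeiotic table has another, unnamed unit (sums of 83.0 and 83.2% of 1000000), served for ranks only, and its 1 value below 0 was set to 0. Libraries are made with a Smart-seq type method, per the labels' protocols, which does not mark strand.

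The rule was applied to TPM as deposited. limma 3.58.1 (R 4.3.3, trend) was fitted to log2(TPM + 1) of 8 libraries by group, keeping features that reached 1 TPM in at least 2 of them, and was tested on simulated data. Other steps used Python 3.11.15, pandas 2.3.3 and numpy 2.4.6. Gene models were named if members, or the nearest 2 outside each anther threshold; others named were chosen after their values were seen. The members and lists were chosen with earlier results of these data known. Alternatives covered the rule's thresholds, scaling, pseudocount, low-value filter, replicate block and left-out libraries.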

Additional observations from a re-analysis of the deposited data

How the results depend on the processing

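The number of gene models meeting the rule depended on scaling and thresholds. It was 70 with libraries scaled to a common median, 28 with quantile normalization, 27 with an anther ratio of 1.5, 6 with no germ cell minimum and 5 with a minimum of 2 TPM, against 3 as given, and all 3 were kept in each. An anther ratio of 3 left 2, without Zm00001d039566. With 1 library left out the number ran from 1 (without B73 germ cell replicate 2) to 45 (without ms28 anther replicate 2), and was 23 without replicate 1 of ms28 anthers, and 34 and 31 without replicates 1 and 2 of B73 anthers. Fewer libraries had to meet the condition there.

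The number of the 3 called higher in ms28 anthers by limma was 1, against 0 at an adjusted p under 0.01, 0 when only the anther table was fitted (where 3 of 3 had an unadjusted p under 0.05) and 0 to 3 with 1 library left out: 0 without any one of replicate 1 of ms28 anthers and the ms28 germ cell libraries, and 3 without either B73 germ cell library. With the replicate block it was 2. Replicate numbers are not stated to mark a shared plant or day, and the differences between replicates 1 and 2 correlated between groups at -0.08 to 0.14 over 20892 features, so no pairing was assumed. Between B73 germ cells and anthers 1 was called with centred libraries and 0 to 2 with 1 library left out. The median rank difference between B73 stages lay between -17.0 and -12.6. The calls among the 5 trigger precursors were 0 to 2 with 1 library left out (the 2, without B73 anther replicate 2, in opposite directions) and 0 with a pseudocount of 0.1, alternatives added after seeing the data. TPM keeps no depth, so precision at low values is unknown.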

Other observations

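The gene models below were chosen after their values were seen. Of the 31 gene models that met the anther condition, 5 had both germ cell means under 1 TPM and so could not be judged level or not. Their germ cell libraries read 0.119 to 1.04 TPM in all. Zm00001d027201 read 11.1 and 13.5 TPM in ms28 anthers, against 3.76 and 2.02 TPM in B73 anthers, and was listed at 0 in both premeiotic libraries. Zm00001d027837 read 109.8 and 24.3 TPM in ms28 anthers, against 0.1 and 6.41 TPM in B73 anthers. Its libraries differed widely within each genotype.

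A further 3 gene models met the anther condition but are not in the germ cell table used here. The most abundant, Zm00001d031488, read 3195 and 2029 TPM in ms28 anthers, against 435.1 and 512.3 TPM in B73 anthers.

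The 3 gene models with a germ cell ratio under 0.5 carry numbers within 11 of each other: Zm00001d047542, Zm00001d047548 and Zm00001d047553. Zm00001d047548 read 358.3 and 316.2 TPM in ms28 anthers, against 142.5 and 67.6 TPM in B73 anthers. In germ cells it read 32.6 and 67.8 TPM in ms28, against 126.5 and 384.5 TPM in B73. Zm00001d047553 read 361.5 and 315.9 TPM in ms28 anthers, against 155.1 and 71.4 TPM in B73 anthers. Whether these gene models share reads was not tested, so their levels are uncertain. As with Zm00001d039566 and Zm00001d008841, B73 germ cell replicate 2 was the higher B73 library at each of the 3. At Zm00001d042639 replicate 1 was the higher, at 46.0 against 30.7 TPM. The share of all gene models with replicate 2 higher was not counted, so nothing is read from this.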
